A study of Mus musculus with 3 samples.

Results

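The Wnt ligands, receptors and modulators are 39 genes chosen by name from a list of the pathway, and all 39 were found among the 56833 genes of the deposited table. They were measured by RNA sequencing in cells of mouse ankle synovium, the tissue that lines a joint, which the labels call telocytes. The mice carried Efhd1CreER and the Ai9 reporter, so that the red protein tdTomato marks cells in which the Cre recombinase made from the Efhd1 gene has been active, and these tdTomato+ cells were sorted before culture. The 3 groups share this genotype and sort and, by the labels, differ in the stiffness of the collagen-coated plate on which the cells were kept for 24 h, at 0.2 kPa (soft), 8 kPa (intermediate) or 64 kPa (stiff). Each stiffness level had 1 library, so the differences come without replication or p-values, and culture and stiffness cannot be told apart. The tissue of up to 2 synovia was digested in a tube, and cells were grown in complete DMEM with F12 nutrient mix. How many mice gave cells to each culture, and how the Cre recombinase was activated, are not given in the sources used here.

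Wnt proteins are secreted, lipid-bearing signals that bind Frizzled receptors. With an Lrp5 or Lrp6 co-receptor they stabilise beta-catenin, which enters the nucleus and works with the TCF/LEF factors on DNA, and with Ror receptors some Wnts act on cell polarity and movement without beta-catenin. Secreted inhibitors hold the signal back, R-spondins strengthen it by protecting Frizzled receptors from the ubiquitin ligases Znrf3 and Rnf43, and in joint tissue the balance of these parts is known to affect bone, cartilage and synovial fibroblasts.

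The libraries held 25487064 to 28081600 reads. Values are normalized counts, which are reads per gene divided by a size factor of the library, and 1 read was worth 0.943 to 1.03 of them. A difference is given as a log2 ratio of normalized counts with 1 added to each, followed by a 95% exact counting interval in which nothing is added; the interval covers counting error only and not the spread between cultures. Efhd1 itself had 10, 5 and 3 reads in the soft, intermediate and stiff library, so it checks the sort poorly. The reporter tdTomato had 818, 1193 and 2668 normalized counts, a stiff to soft log2 ratio of 1.70. This reporter difference lies beside every stiff against soft difference below, and what it has to do with them was not tested. Of the 9 markers listed for telocytes, Cd34 had 235 to 318 and Pdgfra 5118 to 6298 normalized counts, whereas Kit had 38.7 to 45.1 and Tek 13.3 to 21.5. The sum of 14 macrophage markers was 31099 normalized counts on the soft plate, 38837 on the intermediate plate and 68050 on the stiff plate, 11 of the 13 markers abundant enough to be counted were higher by 0.5 or more in the stiff than in the soft library, and Cx3cr1 was at 0 in all 3. Every stiff against soft difference below therefore lies beside a 2.19-fold difference in summed macrophage markers, and the part of these cells in it was not tested; in such samples fewer cells of a type and less RNA per cell cannot be told apart. Of 6 skeletal muscle markers Acta1 had 168, 297 and 622 normalized counts and Mylpf 46.1 to 54.7, and the other 4 had 0 to 12 reads. Summed markers of endothelial cells were 165 to 205 and of mural cells 2439 to 3372 normalized counts, and no erythroid marker had a read. Most of the mural sum came from Cspg4, at 1642 to 2496, and Notch3, at 512 to 601, while Myh11, Abcc9 and Kcnj8 had 0 to 13 reads. Of 5 counted mural markers 2 were higher by 0.5 or more in the stiff than in the soft library, Cspg4 at 0.53 and Mcam at 0.86, and 0 lower. The sum of 9 fibroblast markers was 1.49-fold higher in the stiff than in the soft library, with 2 of the 9 called, Col1a1 at a log2 ratio of 0.95 and Fn1 at 1.08, a median of 0.26, and Dcn at -0.44, Lum at -0.36 and Pdgfra at -0.20. Among markers of cartilage and bone, Schwann cells and lymphoid or mast cells, Col2a1 stood at 1.46, Sp7 at -0.91, Mbp at 1.22, S100b at -0.60 and Mcpt8 at -0.61, and the part of any of these in the Wnt differences was not tested.

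Across the whole list there was no common direction. Of the 39 genes 32 had a mean over the libraries of at least 50 normalized counts and were counted, and a gene was called when its log2 ratio reached 0.5 in size, a 1.41-fold difference. Between stiff and soft 3 of the 32 were higher (Tcf7l2, Fzd4 and Znrf3) and 3 were lower (Notum, Tcf7 and Fzd1), and the median log2 ratio was 0.04, beside 0.00 over all genes. Over all 11873 genes with that mean 11.8% were called higher and 3.77% lower, beside 9.38% of the Wnt genes in each direction, and with 3 genes a direction these shares are descriptions only. Under scaling by total reads 1 was higher and 3 were lower, beside 10.4% and 5.04% of all genes under that scaling. At a log2 ratio of 1, which 3.22% of all genes passed upward and 0.387% downward, Tcf7l2 was the only Wnt gene called.

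**Figure D1:**
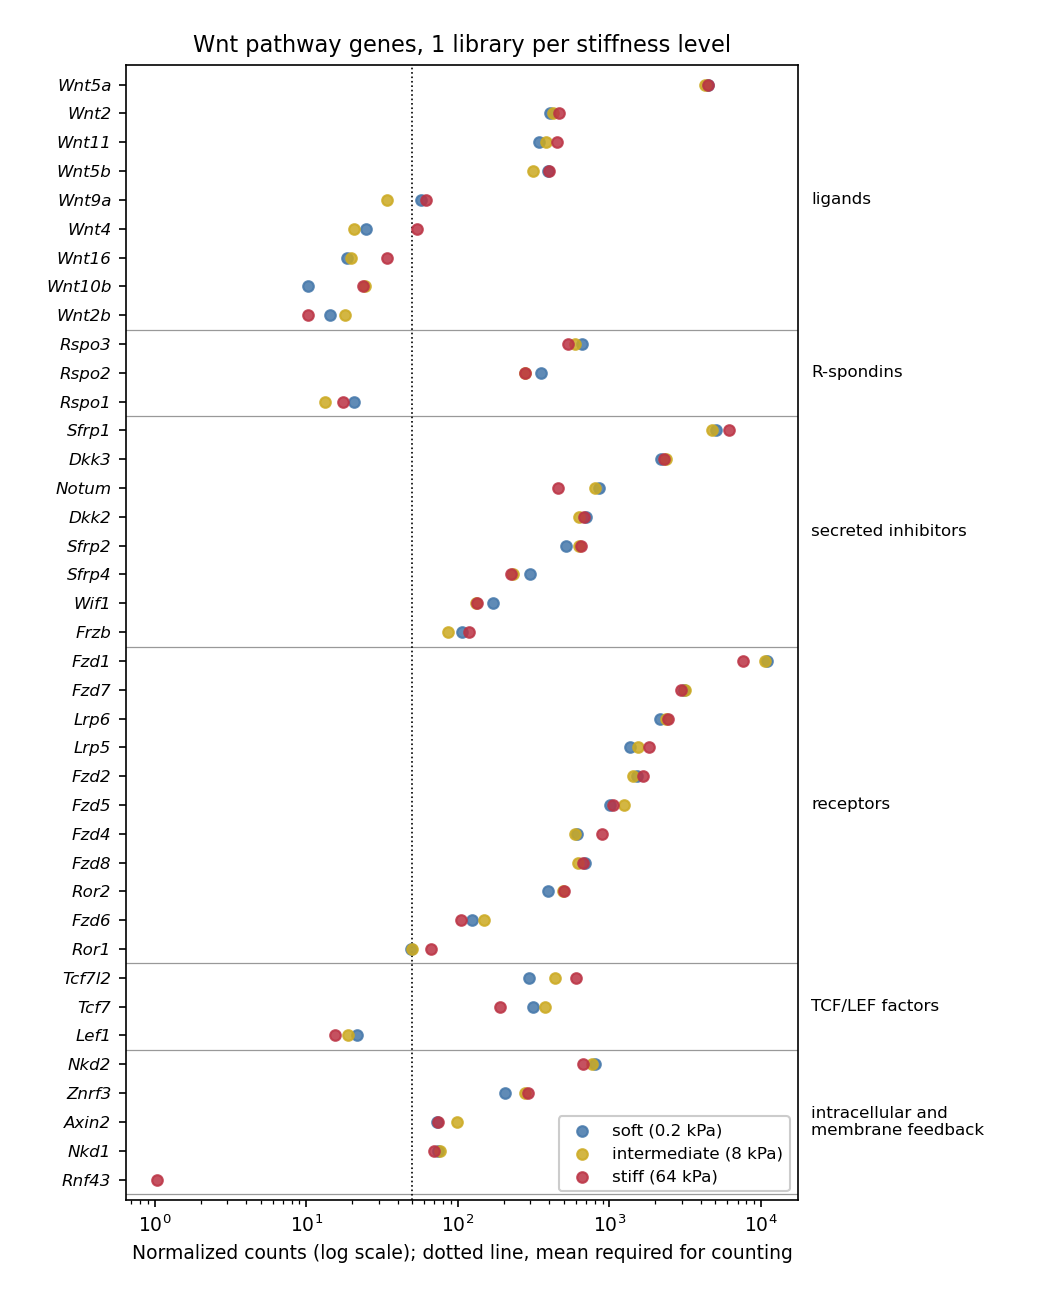
Normalized counts of the 39 Wnt pathway genes (log axis) in the soft, intermediate and stiff library, 1 point per library, grouped by role; the dotted line marks 50, and a count of 0 (Rnf43, soft and intermediate) has no point. Tcf7l2 moves to the right from 294 to 435 to 605, while Notum, Tcf7 and Fzd1 have their stiff point to the left of the other 2.

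The nuclear factors of the pathway differed in opposite directions. Tcf7l2, a DNA-binding partner of beta-catenin, spans bases 55730188 to 55922091 of chromosome 19 (GRCm39, plus strand) and has 13 exons in its canonical transcript. It had 294 normalized counts on the soft plate, 435 on the intermediate plate and 605 on the stiff plate. Each step was upward: the log2 ratio was 0.56 (0.35 to 0.78) between intermediate and soft, 0.48 (0.30 to 0.66) between stiff and intermediate, and 1.04 (0.83 to 1.25) between stiff and soft, rank 343 from the top of the 11873 genes. Tcf7, the factor also known as TCF1, spans bases 52143107 to 52174619 of chromosome 11 (minus strand), with 11 exons. It had 315, 378 and 189.7 normalized counts in the same order. It was thus highest in the intermediate library and lowest in the stiff one, with log2 ratios of 0.26 (0.05 to 0.48) over the first step, -0.99 (-1.25 to -0.74) over the second and -0.73 (-1.0 to -0.46) over both, rank 156 from the bottom. Lef1, the third factor on the list, had 21, 20 and 15 reads, and no difference was detectable at this depth.

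The make-up of the TCF/LEF family differed accordingly. On a scale of normalized counts per kilobase of the canonical transcript, which allows levels of different genes to be compared, the 4 genes of the family summed to 309 on the soft plate, 377 on the intermediate plate and 437 on the stiff plate. Tcf7 gave 29.3%, 28.8% and 12.5% of that sum, Tcf7l2 gave 23.0%, 27.9% and 33.5%, and Tcf7l1, which is outside the list and is known mainly as a repressor, gave 44.9%, 41.3% and 52.6%. In reads, Tcf7 took 28.6% of the family in the soft library (exact 95% interval 25.9% to 31.4%), 27.8% in the intermediate one (25.5% to 30.2%) and 11.9% in the stiff one (10.3% to 13.6%). On this scale Tcf7 stood at 109 and Tcf7l2 at 105 on the intermediate plate, and at 54.6 and 146 on the stiff one.

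**Figure D2:**
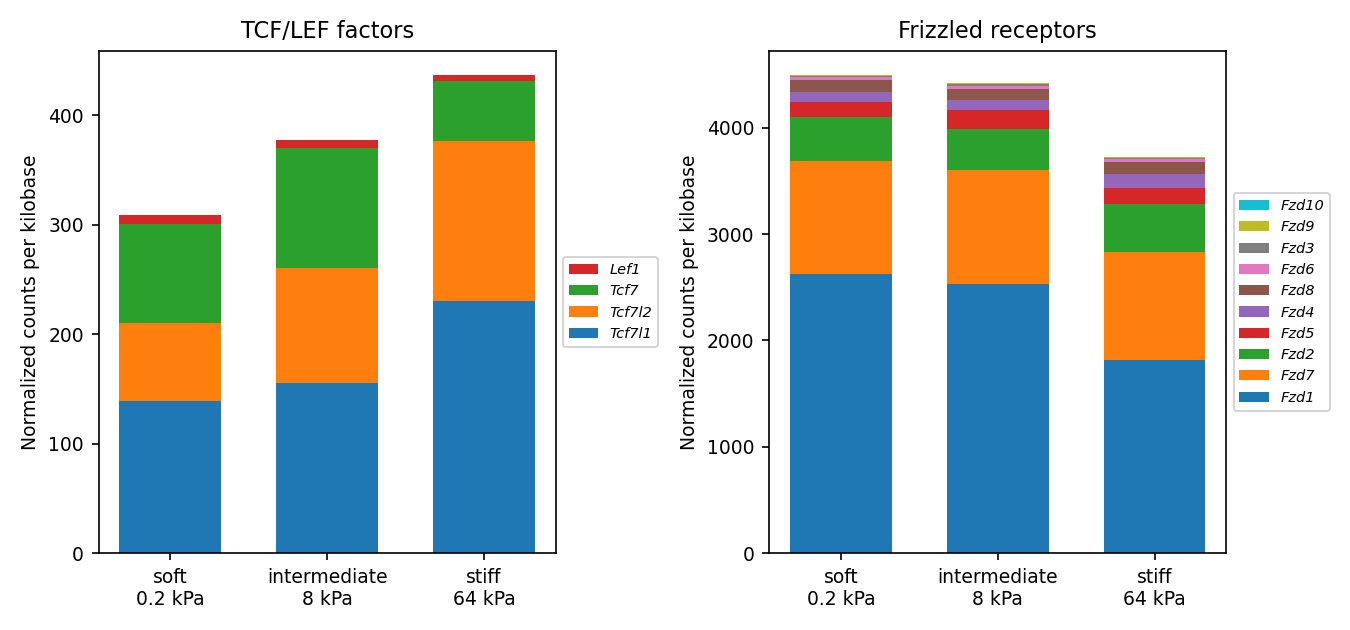
Summed normalized counts per kilobase of canonical transcript for the TCF/LEF genes (left) and the Frizzled receptors (right) in each library, 1 library per bar, with each gene as a segment. In the left panel the Tcf7 segment is smallest on the stiff plate, at 54.6, where those of Tcf7l1 and Tcf7l2 are largest; in the right panel the Fzd1 segment is smallest there, at 1819.

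The start regions of these 2 genes, and that of Notum below, are printed because they are the 3 Wnt genes with the largest stiff against soft log2 ratios in size among those counted. Each sequence is the 250 bases before the start of the canonical transcript, read 5′ to 3′ on the gene's strand of GRCm39, at chr19:55729938-55730187 (plus) for Tcf7l2, chr11:52174620-52174869 (minus) for Tcf7 and chr11:120552020-120552269 (minus) for Notum. Capitals mark a match to the core of the TCF/LEF motif, searched as CTTTGAT or CTTTGTT on both strands, which do not overlap each other.
Tcf7l2: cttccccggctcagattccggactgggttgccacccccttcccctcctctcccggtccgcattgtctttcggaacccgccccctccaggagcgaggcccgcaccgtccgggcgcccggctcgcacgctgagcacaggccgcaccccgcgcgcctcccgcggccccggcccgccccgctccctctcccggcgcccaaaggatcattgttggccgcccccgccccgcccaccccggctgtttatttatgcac
Tcf7: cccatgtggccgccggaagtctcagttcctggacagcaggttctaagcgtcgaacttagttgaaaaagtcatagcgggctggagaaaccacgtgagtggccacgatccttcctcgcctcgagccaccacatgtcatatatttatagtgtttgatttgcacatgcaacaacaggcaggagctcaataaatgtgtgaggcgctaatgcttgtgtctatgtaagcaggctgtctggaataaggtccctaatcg
Notum: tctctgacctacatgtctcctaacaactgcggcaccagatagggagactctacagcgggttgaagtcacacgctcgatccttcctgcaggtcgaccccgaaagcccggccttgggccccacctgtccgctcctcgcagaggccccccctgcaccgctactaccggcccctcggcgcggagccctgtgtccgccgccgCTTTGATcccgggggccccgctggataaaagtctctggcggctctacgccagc
The window of Tcf7l2 is 73.6% G and C and that of Tcf7 49.6%, and neither holds the motif, while the window of Notum holds it once, 47 to 53 bases before the start. Of the 39 Wnt genes 6 (15.4%) held the motif in this window, beside 7.6% of 21751 protein-coding genes.

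The 6 matches are printed with their surroundings, since they are all the Wnt genes that hold the motif in this window. Each line gives the 7 bases of the motif in capitals with 12 bases on either side, on the strand that reads CTTTGAT or CTTTGTT, at chr11:120552054-120552084 (minus) for Notum, chr8:89247887-89247917 (plus) for Nkd1, chr6:134544300-134544330 (minus) for Lrp6, chr1:59521164-59521194 (minus) for Fzd7, chr4:124879650-124879680 (plus) for Rspo1 and chr15:43034912-43034942 (plus) for Rspo2, all of GRCm39.
Notum: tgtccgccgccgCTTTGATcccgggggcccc
Nkd1: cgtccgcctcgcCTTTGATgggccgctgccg
Lrp6: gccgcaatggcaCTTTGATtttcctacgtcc
Fzd7: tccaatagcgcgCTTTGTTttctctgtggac
Rspo1: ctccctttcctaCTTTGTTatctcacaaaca
Rspo2: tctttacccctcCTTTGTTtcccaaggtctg
The core lay 20 to 26 bases before the start in Nkd1 and 218 to 224 in Rspo2, the nearest and the farthest. A match is a description of the sequence and not a site in use: among the 6, the stiff to soft log2 ratio of normalized counts ran from -0.90 for Notum to 0.19 for Lrp6, and Rspo1 had under 50 normalized counts. The TEAD motif GGAATG was in none of the 39 windows and in 12.1% of all.

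Feedback genes that beta-catenin is known to induce did not share a direction. Axin2, part of the complex that destroys beta-catenin and the most used readout of the pathway, had 72.8 normalized counts on the soft plate, 99.0 on the intermediate plate and 73.8 on the stiff plate. The stiff and soft values were close, with a log2 ratio of 0.02 (-0.47 to 0.51) that includes 0, from 71 and 72 reads. Its first step was 0.44 (-0.005 to 0.90) and its second -0.42 (-0.88 to 0.02), and both intervals included 0. Znrf3, a ubiquitin ligase that removes Frizzled receptors, had 204, 276 and 291 normalized counts. It was lowest in the soft library and its difference lay in the first step, at 0.44 (0.17 to 0.70), with 0.51 (0.25 to 0.78) between stiff and soft. That call was lost under scaling by total reads (0.46), with a pseudocount of 10 (0.49) and with the trend of all ratios with transcript length and GC content subtracted (0.29). Nkd2, which dampens signalling at Dishevelled, had 803, 768 and 666 normalized counts, a stiff to soft log2 ratio of -0.27 (-0.42 to -0.12), and its relative Nkd1 had 73.8, 76.4 and 69.7. Rnf43, the other ligase, had 0, 0 and 1 read, which a count of 0 does not distinguish from up to 3 reads, so the relative Znrf3 supplied the reads of this pair.

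Among the secreted inhibitors Notum had the lowest stiff to soft ratio, which was also the lowest of the 32 genes counted. It encodes an extracellular enzyme that strips the lipid from Wnt proteins, is itself known as a beta-catenin target, and spans bases 120541446 to 120552019 of chromosome 11 (minus strand), with 11 exons. Notum had 853 normalized counts on the soft plate, 803 on the intermediate plate and 456 on the stiff plate. The soft and intermediate values were close, at -0.09 (-0.23 to 0.05), and the stiff library was lower than both, at -0.81 (-0.98 to -0.65) against intermediate and -0.90 (-1.07 to -0.73) against soft, rank 71 from the bottom. Its antisense neighbour Notumos, whose exons overlap those of Notum, had 35, 31 and 15 reads, beside 832, 852 and 445 for Notum.

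The secreted Frizzled-related proteins, which bind Wnts outside the cell, were led by Sfrp1. It had 5084, 4739 and 6135 normalized counts from the softest to the stiffest plate. It was highest on the stiff plate, with a stiff to soft log2 ratio of 0.27 (0.22 to 0.33), and lowest on the intermediate one. The ratio was 0.16 with the trend in length and GC content subtracted and 0.20 to 0.22 under the scalings by total reads and the upper quartile. Sfrp2 had 515, 628 and 647 normalized counts, lowest in the soft library, with 0.33 (0.16 to 0.50) between stiff and soft. Sfrp4 had 300.4, 230.02 and 222.5 and went the other way, at -0.43 (-0.69 to -0.17), and Wif1, an inhibitor of another structure, had 171, 131 and 133, at -0.36 (-0.70 to -0.02). In both of these the soft library stood above the other 2, and the difference lay in the first step. Frzb, also called Sfrp3, had 107, 85.8 and 118 normalized counts, at 0.14 (-0.25 to 0.54). Per kilobase the 5 genes of the family summed to 1522, 1458 and 1775, of which Sfrp1 gave 72.2%, 70.2% and 74.7%, while Sfrp5 was at 0. Of the Dickkopf proteins, Dkk2 had 631 to 696 and Dkk3 2199 to 2355 normalized counts, and the intervals of their stiff to soft ratios, -0.20 to 0.12 and -0.04 to 0.14, included 0, though the ratio of Dkk3 was -0.13 with the trend subtracted. Dkk1, the classical inhibitor of Lrp5 and Lrp6 and not on the list, had 12.3, 18.9 and 3.08 normalized counts, the last from 3 reads.

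The Frizzled receptors summed to 4498 normalized counts per kilobase on the soft plate, 4418 on the intermediate plate and 3720 on the stiff plate, and Fzd1 alone was lower by more than the sum. Fzd1, a single-exon gene at bases 4803839 to 4808035 of chromosome 5 (minus strand), was the most abundant Wnt gene of the list per kilobase. It had 11030 normalized counts on the soft plate, 10599.8 on the intermediate plate and 7633 on the stiff plate. The stiff library was the lowest, with a log2 ratio of -0.53 (-0.57 to -0.49) to soft and -0.47 (-0.52 to -0.43) to intermediate, while the first step was -0.06 (-0.10 to -0.02). Its share of the Frizzled sum per kilobase went from 58.4% to 57.2% to 48.9%. Fzd4, a receptor known from retinal vessels, spans bases 89053563 to 89062342 of chromosome 7 (plus strand) and had 615, 588 and 893 normalized counts. It was opposite to Fzd1 in direction over the second step, at 0.60 (0.45 to 0.75), and reached 0.54 (0.39 to 0.69) between stiff and soft, a call lost under scaling by total reads (0.48) and after subtraction of the trend with length and GC content (0.41).

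None of the other Frizzled genes on the list was called between stiff and soft. Fzd7 had 2982 to 3174 normalized counts, Fzd8 had 624 to 690, and for both the stiff to soft interval included 0, while the ratios with the trend subtracted were -0.26 and -0.24. Fzd2 had 1512, 1429 and 1675 normalized counts, at 0.15 (0.04 to 0.25), which turned to -0.04 after the trend was subtracted. Fzd5 had 1008, 1255 and 1049, and Fzd6 had 123, 149 and 104.6. These 2 receptors had their highest value on the intermediate plate, with log2 ratios over the second step of -0.26 (-0.38 to -0.14) for Fzd5 and -0.51 (-0.88 to -0.14) for Fzd6. The first step of Fzd5 was 0.32 (0.20 to 0.44), or 0.09 with the trend subtracted. That of Fzd6 was 0.27 (-0.08 to 0.63), an interval that includes 0. Between stiff and soft Fzd5 stood at 0.06 (-0.07 to 0.19), or -0.28 with the trend subtracted, and Fzd6 at -0.23 (-0.63 to 0.16). Fzd3, Fzd9 and Fzd10, outside the list, had at most 159 normalized counts in any library.

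Both co-receptors had their lowest value on the soft plate and their highest on the stiff one. Lrp5 had 1375, 1543 and 1833 normalized counts from the softest to the stiffest plate, and Lrp6 had 2141, 2354 and 2446. The stiff to soft log2 ratio was 0.41 (0.31 to 0.52) for Lrp5 and 0.19 (0.11 to 0.28) for Lrp6. Genes with transcripts as long and GC-rich as theirs had a fitted stiff to soft trend of 0.42 and 0.19, and with this subtracted the ratios were -0.003 and -0.0006. Of the Ror receptors, Ror2 had 396, 493 and 505 normalized counts, lowest in the soft library, at 0.35 (0.16 to 0.55), or 0.10 with the trend subtracted. Ror1 had 48, 53 and 65 reads, at 0.43 (-0.12 to 1.01), and took 9.20% to 11.7% of the reads of the pair.

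**Figure D3:**
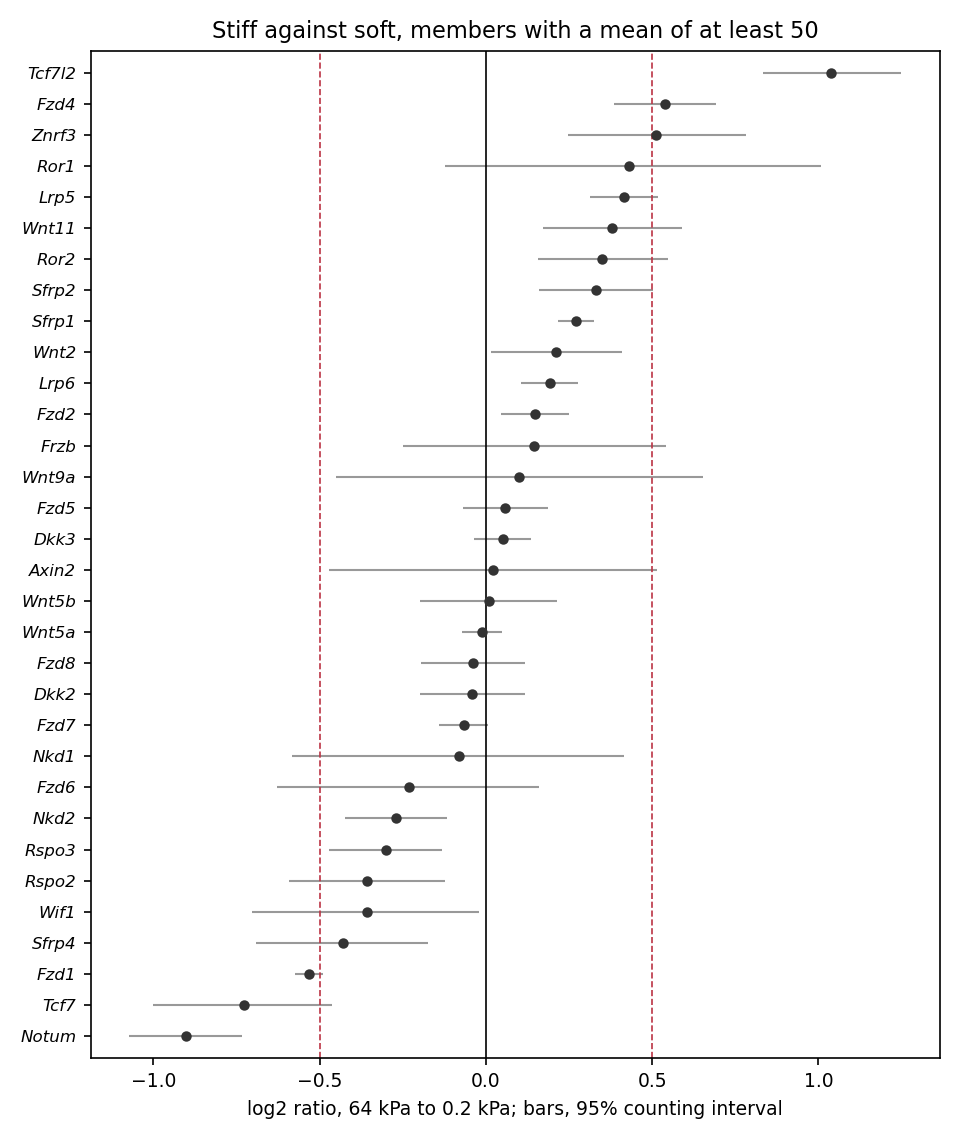
Log2 ratio of stiff to soft for the 32 Wnt genes whose mean reached 50 normalized counts, ordered by ratio; bars are 95% counting intervals from 1 library per level, and dashed lines mark 0.5 in size. Tcf7l2 at 1.04 stands apart at the top and Notum, Tcf7 and Fzd1 lie below -0.5.

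The ligands were dominated by Wnt5a, which acts largely through Ror2 and without beta-catenin. Wnt5a had 4491 normalized counts on the soft plate, 4286 on the intermediate plate and 4457 on the stiff plate. The 3 values were close, with a stiff to soft log2 ratio of -0.01 (-0.07 to 0.05), so counting error leaves room for a difference of at most 0.07 on the log2 scale between these 2 libraries under this scaling. With the trend subtracted the ratio was -0.15. Of the sum of all 19 Wnt genes per kilobase, which was 1040.1, 1001.1 and 1106, Wnt5a gave 59.8%, 59.3% and 55.8%. Its relative Wnt5b had 395, 313 and 397 normalized counts and was lowest on the intermediate plate, with -0.33 (-0.55 to -0.12) over the first step and 0.34 (0.13 to 0.56) over the second. The exons of Wnt5b overlap those of Fbxl14 on the other strand, which had 1101 to 1246 normalized counts; the strand setting of the counting is not given in the sources used here, so reads from the 2 genes may be mixed.

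Wnt2 and Wnt11 had their highest value on the stiff plate, and neither reached a log2 ratio of 0.5. Wnt2, a ligand known for beta-catenin signalling, had 403, 425 and 467 normalized counts, at 0.21 (0.01 to 0.41) between stiff and soft, while the interval of each single step included 0. Scaling by total reads shifts the stiff to soft ratios by -0.06, which takes the lower limit of 0.01 below 0. The ratio of Wnt2 was 0.16 under that scaling. Wnt11, known from cell movement, had 344, 383 and 448, at 0.38 (0.17 to 0.59), or 0.22 after the trend was subtracted. Wnt9a, which takes part in joint formation, had 57.4, 33.9 and 61.5 normalized counts. It was lowest on the intermediate plate, at -0.74 (-1.40 to -0.13) over the first step and 0.84 (0.24 to 1.50) over the second, and its mean of 51.0 lay just above the minimum for counting.

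The 4 other ligands of the list lay under that minimum. Wnt4 had 24 reads on the soft plate, 22 on the intermediate plate and 52 on the stiff plate, a stiff to soft log2 ratio of 1.09 (0.39 to 1.88). Wnt16, known for its role in cortical bone, had 18, 21 and 33 reads, at 0.84 (0.00 to 1.79). Wnt10b had 10, 26 and 23 reads, at 1.13 (0.07 to 2.44), and overlaps Wnt1 on the other strand, which had at most 2 reads. Wnt2b had 14, 19 and 10 reads, at -0.45 (-1.82 to 0.79). Among the low ligands Wnt4 was thus the one whose stiff library stood clear of both others beyond counting error. Of the 10 Wnt genes outside the list none had a mean of 50, and Wnt3, Wnt3a, Wnt7a, Wnt8a, Wnt8b and Wnt9b had no read.

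The R-spondins were highest on the soft plate. Rspo3 had 657, 596 and 533 normalized counts from the softest to the stiffest plate, and Rspo2 had 355, 278 and 277. The stiff to soft log2 ratio was -0.30 (-0.47 to -0.13) for Rspo3 and -0.36 (-0.59 to -0.12) for Rspo2, neither past 0.5. With the trend in length and GC content subtracted these ratios were -0.20 and -0.33. Rspo3 was the higher of the pair per kilobase in each library (126 to 155 against 26.8 to 34.4), Rspo1 had 20, 14 and 17 reads, and Rspo4 had none. Lgr4, the R-spondin receptor outside the list, had 5237, 5455 and 3906 normalized counts, lowest on the stiff plate at -0.42 (-0.48 to -0.36), and Lgr6 had 2802, 3514 and 2366. Lgr5, under the minimum for counting, had 13, 16 and 34 reads, highest on the stiff plate at 1.32 (0.43 to 2.43); it was added after its values were seen.

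The stiffness levels are ordered, so each step between neighbouring plates was counted too. Between intermediate and soft 1 of the 32 Wnt genes was called higher (Tcf7l2; background 3.94%) and 1 lower (Wnt9a; background 0.657%). Between stiff and intermediate 2 were called higher (Wnt9a and Fzd4; background 5.42%) and 3 lower (Notum, Fzd6 and Tcf7; background 3.42%). With the trend in length and GC content subtracted Fzd6 was no longer called, at -0.48, and Fzd1 was, at -0.55. The median log2 ratio was -0.02 for the first step and 0.05 for the second, beside 0.01 over all genes in each. Both steps share the intermediate library, which enters them with opposite signs, so counting error alone makes opposite steps more frequent.

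Steps in which the counting interval left out 0 sorted 8 of the 32 genes into 4 shapes. Lrp5 and Tcf7l2 were higher in both steps, as were 10.6% of all genes, and Fzd1 was lower in both, as were 4.4% of all genes. Fzd5 and Tcf7 were higher and then lower, a shape held by 4.03% of all genes. Wnt5b, Wnt9a and Sfrp1 were lower and then higher, a shape held by 2.8% of all genes. After the trend with length and GC content was subtracted, the first step of Lrp5 was -0.06 and its second 0.06. The first step was then 0.09 in place of 0.32 for Fzd5, and 0.21 in place of 0.26 for Tcf7. Their second steps were then -0.38 and -1.05. All the sorted genes but Lrp5 kept the direction of both steps, but the intervals were not used again with the trend subtracted.

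**Figure D4:**
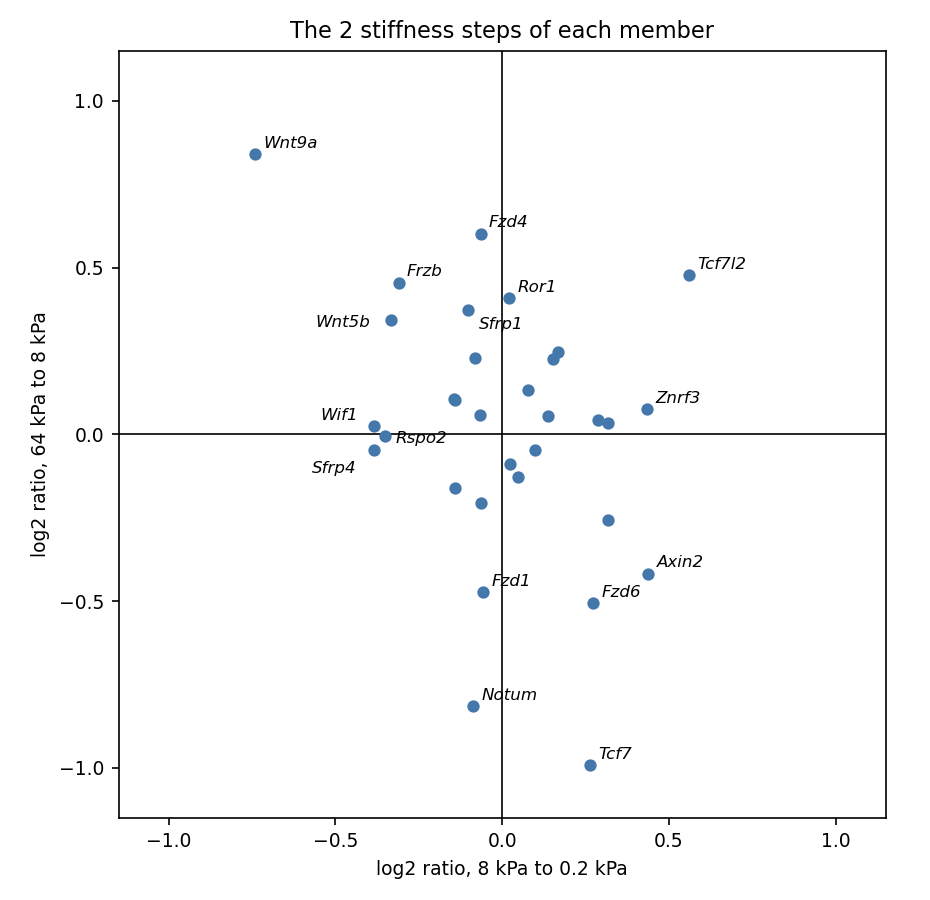
Log2 ratio of intermediate to soft (horizontal) against stiff to intermediate (vertical) for the 32 Wnt genes whose mean reached 50 normalized counts, from 3 single libraries; genes with a step of at least 0.33 in size are named. Tcf7l2 lies at 0.56 and 0.48, Tcf7 at 0.26 and -0.99, and Notum at -0.09 and -0.81.

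Other genes of the pathway were taken from lists chosen with earlier results of these data known. The named ones are the 3 highest and 3 lowest stiff to soft log2 ratios among the counted genes, with a few others always named. In the cytoplasmic branch 7 of 29 genes were higher and 0 lower between stiff and soft at 0.5, against 11.8% and 3.77% of all genes, with a median of 0.10. Counts for the lists outside the Wnt genes were not repeated under other scalings or with the trend in length and GC content subtracted. The part of scaling or of that trend in these counts was therefore not tested. The highest were Bcl9l, a beta-catenin cofactor, at 1.03, the scaffold Dvl3 at 0.85 and Tcf7l1 at 0.73, and the lowest were Dvl2 at -0.34, Pygo1 at -0.34 and the corepressor Tle2 at -0.18. Ctnnb1, which encodes beta-catenin itself, had 18767, 18945 and 16895 normalized counts, a stiff to soft ratio of -0.15 (-0.18 to -0.12). Of 11 genes of ligand secretion and extracellular control, with a median of 0.06, 2 were higher, namely Trabd2b, a Wnt-cleaving protease, at 1.04 and Draxin at 0.85, and 1 was lower, Cthrc1, at -0.66. Gpc3 stood at 0.41, and Apcdd1 at -0.29 and Wls, the carrier that brings Wnts to the surface, at -0.25 were next lowest, while Porcn, which attaches the lipid, was at -0.08 (-0.44 to 0.27) and Kremen1 at 0.14.

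The same shares of all genes, 11.8% higher and 3.77% lower, stand beside the stiff against soft counts of the lists that follow. Of 8 receptors outside the list, with a median of 0.05, 1 was higher, Lrp4 at 0.58, followed by Adgra2 at 0.34 and Ptk7 at 0.28, and 0 were lower, with Lgr4 at -0.42, Fzd3 at -0.34 and Lgr6 at -0.24. In the planar polarity and calcium branch 4 of 26 (15.4%) were higher and 1 (3.85%) lower, shares close to those of all genes, with a median of 0.10, led by Nfatc2 at 1.32, Fat4 at 0.75 and Prickle3 at 0.59, with Nfatc4 at -0.53, Prickle2 at -0.26 and Mapk8 at -0.16 lowest. The list of beta-catenin target genes, which many other signals also induce, leaves out the Wnt genes described above, such as Axin2, Notum, Znrf3 and Nkd1. Apcdd1, Kremen1 and Nfatc1 were also counted in the lists above. Of the 19 counted target genes 4 (21.1%) were higher between stiff and soft and 1 (5.26%) lower, with a median of 0.19. The highest were Tiam1 at 0.92, Ccn1 at 0.89 and Myc at 0.68, and the lowest were Fst at -0.81, Vegfa at -0.31 and Apcdd1 at -0.29. Over the first step 5 of these 19 were higher and 0 lower, beside 3.94% and 0.657% of all genes, and over the second 1 was higher and 4 lower, beside 5.42% and 3.42%. These steps share the intermediate library, so their opposite counts are not independent of each other.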

How the data were processed

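The deposited values are a signal: the authors scaled each library's gene counts with DESeq2, per the file name. The submitters' processing notes name bcl2fastq 2.20.0, STAR 2.7.9a, featureCounts, Subread 2.0.1, DESeq2 1.34.0 and the build GRCm39, without roles; annotation and strand setting are not given in the sources used here. Libraries were made with a stranded poly(A) kit, per the labels. The 3 deposited files were identical, and each column carries a sample's title. All values (100%, within 0.001 of a read) were whole multiples of the smallest, so reads were recovered.

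Log2 ratios used a pseudocount of 1, which understates the change of low genes, and intervals are Clopper-Pearson. No count test was possible with 1 library per level. Positions, lengths and GC contents come from GENCODE vM39 on GRCm39; 11674 of the 11873 genes counted had a length. The trend of ratios with length and GC content was fitted locally and robustly on the 300 closest genes. Of the 39 genes, 0 overlapped an exon of another gene on the same strand and 21 did on the opposite one. Alternatives were other pseudocounts, minimum means, scalings and thresholds, and the trend. The members and lists were chosen with earlier results of these data known. Named genes were all members and, per other list, the 3 highest and 3 lowest ratios plus Wls, Porcn, Ctnnb1, Lgr4, Kremen1 and Dkk1. Beyond this rule Lgr5, Fzd9, Fzd10, Rspo4, Sfrp5, Wnt genes outside the list, genes overlapping a member, other genes shared between lists and cell type markers were named. Scripts were tested on simulated data. Python 3.11.15, scipy 1.17.1, scikit-learn 1.9.0 and edgeR 4.0.16 (TMM scaling only) were used.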

Additional observations from a re-analysis of the deposited data

How the results depend on the processing

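No paired analysis was possible because each stiffness level had 1 library, and leaving out a replicate was not possible for the same reason. Without a filter on low values 10 Wnt genes (7 higher, 3 lower) were called at a log2 ratio of 0.5 from soft to stiff, 4 over the first step and 9 over the second, in place of 6, 2 and 5; the added genes were Wnt2b, Wnt4, Wnt10b, Wnt16, Rspo1 and Rnf43, the last from 1 read. Of all genes 8.42% were then higher and 7.52% lower from soft to stiff, 6.99% and 6.24% over the first step and 7.01% and 7.31% over the second. With a minimum mean of 10 the soft to stiff count was 9 (6 higher, 3 lower), beside 13.4% and 6.89% of all genes. The counts of the 2 steps were then 4 and 8, and with 200 they were 1 and 3, since other genes enter or leave; the shares of all genes higher and lower were 6.05% and 3.51%, then 7.90% and 6.14%, with a minimum of 10, and 2.72% and 0.0618%, then 4.00% and 2.31%, with 200. At a log2 ratio of 1 the 3 counts were 1, 0 and 0, where 0.160% of all genes were higher and 0.00842% lower over the first step and 0.825% and 0.421% over the second, and at 0.25 they were 17 (9 higher, 8 lower), 14 (8 and 6) and 13 (7 and 6), beside 23.7% and 15.2%, 14.0% and 4.35%, and 16.2% and 12.5% of all genes. Tcf7l2, Notum and Tcf7 stayed past 0.5 between stiff and soft under every scaling, pseudocount and minimum mean tried and with the length and GC trend subtracted, and so did Fzd1, whose ratio lay between -0.69 and -0.53. The median stiff to soft ratio, 0.04, was -0.02 under scaling by total reads, where that of all genes was -0.05, and -0.14 with the trend subtracted. Fzd4 and Znrf3 were not called between stiff and soft under scaling by total reads, by the upper quartile or by total reads without mitochondrial and ribosomal protein genes, nor with the trend subtracted. Under scaling without mitochondrial and ribosomal protein genes Sfrp4 was called lower, at -0.50, which made 1 higher and 4 lower, beside 9.98% and 5.52% of all genes. Between stiff and intermediate Fzd6 was also not called with a pseudocount of 10 (-0.47), and Fzd1 was also called under scaling by total reads with (-0.51) or without (-0.52) mitochondrial and ribosomal protein genes. No called ratio changed sign. Depth limits Wnt2b, Wnt4, Wnt10b, Wnt16, Rspo1, Lef1 and Rnf43, each under 60 reads a library.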
